A study of Mus musculus with 12 samples.

Results

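The genes described here are 52 mouse genes of the centromere, the mitotic spindle and the mitotic kinases. They were taken by a list of names, which uses no measured value, from the 24813 genes that the deposited table of transcript counts lists. RNA-seq was performed on 12 libraries of female germline stem cells (FGSCs), in 4 groups of 3, to ask how the loss or the excess of *Stella* (*Dppa3*) changes gene expression. The study also measured the cell cycle distribution of these lines with propidium iodide staining and flow cytometry. It reported a larger G2/M share and a smaller G0/G1 share of cells after knockout, and the opposite after overexpression. With cell viability and EdU assays, it also reported more proliferation after knockout and less after overexpression. Those are measures of cells, and the counts below speak of mRNA alone. All lines were C57BL/6 FGSCs past passage 20 grown on mitotically inactivated STO fibroblasts, so RNA of feeder cells can be present in each library. KO was a *Stella*-knockout line made with a pair of sgRNAs and is 1 randomly selected clone. KO-con is labelled DPPA3-ko-control. Over was infected with a *Stella* lentivirus and selected with puromycin, and Over-con carried the empty lentiviral vector. The sources used here do not say whether the 3 libraries of a group came from separate cultures, so p-values measure the spread between these libraries, which may be technical.

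When a cell divides, a kinetochore is built on the centromere of each chromosome and is captured by spindle microtubules. The spindle checkpoint holds the anaphase-promoting complex (APC/C) inactive until all kinetochores are attached, and cyclin B with *Cdk1* and the Aurora and Polo kinases drive entry into mitosis. Kinesin motors then build and elongate the spindle, and the contractile ring separates the daughter cells. Most of these genes are transcribed late in the cell cycle. Their promoters often hold a CHR element, through which the DREAM complex represses them in resting cells, and CCAAT boxes, which bind the activator NF-Y. In germline stem cells, as in other dividing cells, their mRNA is therefore widely used as a measure of cycling.

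Library totals lay between 5611846 and 12866545 counts, and values below are counts per 1000000 (CPM) with TMM scaling over all 12 libraries. *Dppa3* was at 32.1, 28.4 and 30.5 CPM in the Over libraries and at 0 counts in the other 9, KO-con and Over-con included, so the counts check the label of Over but not that of KO. In a library, 3 counts correspond to 0.233 to 0.535 CPM. Of 12 germ cell markers, *Ddx4*, a gene by which the study characterized these cells, and *Gfra1* had 0 counts in every library, and *Stra8* had 1 count in all. *Dazl* and *Pou5f1* (Oct4), which the study also used as markers, had 1 count each over the 12 libraries. *Prdm1* (Blimp1) had 104 counts and *Sycp3* 191. *Ddx4*, *Dazl* and *Pou5f1* each have 2 listed transcripts and *Gfra1* has 3, while *Stra8* and *Prdm1* have 1. *Ifitm3* lay at 76.8 to 164 CPM.

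Of the 52 genes, 28 had 1 listed RefSeq transcript and 24 had 2 to 6. All 28 genes with 1 transcript reached a mean of 1 CPM, with 266 to 19448 counts over the 12 libraries. Only 5 of the 24 others (20.8%) did so. A smaller gap in the same direction was seen over all protein-coding genes, of which 50.6% with 1 transcript and 22.0% with 2 or more reached 1 CPM. How reads shared by transcripts were counted is not given in the sources used here. In all, 33 of the 52 genes had enough counts to be tested between KO and KO-con, and the 19 that were not tested all had 2 or more transcripts. *Cenpl*, *Nuf2*, *Spc24*, *Bub1*, *Ttk*, *Tpx2* and *Prc1* had 0 counts in all 12 libraries. The other 12, *Cenpa*, *Cenpi*, *Cenpk*, *Cenpm*, *Spc25*, *Aurka*, *Cdc25b*, *Kif2c*, *Kif20a*, *Ect2*, *Racgap1* and *Nusap1*, had 1 to 95 counts in sum. These 19 include the centromeric histone variant *Cenpa* and the spindle kinase *Aurka*, and their expression was not measurable here, which is not evidence that it is absent. For the 5 genes with 2 or more transcripts that were tested (*Knl1*, *Mad1l1*, *Mad2l1*, *Vrk1* and *Birc5*), the values are those of the transcript with the most counts.

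**Figure D1:**
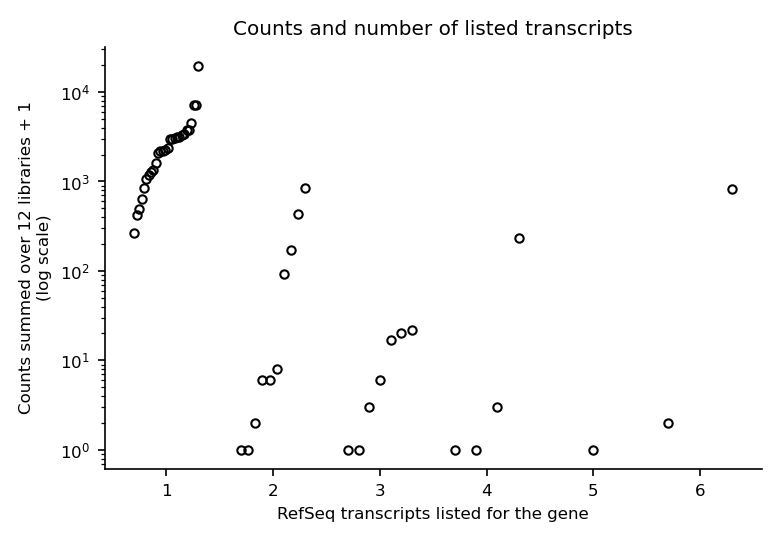
Counts of the 52 genes summed over the 12 libraries, plus 1, on a log axis, against the number of RefSeq transcripts listed for the gene. Each circle is 1 gene, shown by its transcript with the most counts, and circles of the same transcript number are spread sideways. All 28 genes with 1 transcript lie above 200 counts, and most genes with 2 or more lie below 100.

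Per kilobase of the longest annotated transcript, *Incenp* had the highest mean level of the 28 genes with 1 transcript, at 18.2 CPM per kilobase. *Mki67* followed at 16.1 and *Cdc20* at 14.5 CPM per kilobase. *Kif18a*, a kinesin that limits chromosome movement at the metaphase plate, had the lowest, at 0.815 CPM per kilobase.

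To show the promoter letters that these genes share, 300-base windows (250 bases before and 50 after the start site) were read from RefSeq on GRCm38.p6, and 45 of the 52 genes had one. No window was held for *Ccna2*, *Aurkb*, *Incenp*, *Cdc25c*, *Spc24*, *Kif20a* and *Tpx2*. The CHR element was searched as TTTGAA or TTTAAA on either strand, the CCAAT box as CCAAT on either strand, and the E2F element as TTCCCGC or TTTGGCGC on either strand, and matches were allowed to overlap. A CHR element was found for 32 of 45 genes (71.1%), against 30.6% of all 27025 genes with a window. TTTGAA alone was found for 64.4% against 20.2%. The CCAAT box was found for 75.6% against 41.1%, and both elements stood in 1 window for 55.6% against 12.2%. E2F elements were found for 15.6% against 5.79%, while in a list of DNA replication genes they were found for 51.9% and the CHR element for 25.9%. Letters that match are a description and do not show that a factor binds.

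The stretches below run from 130 bases before to 20 bases after the start site. They are shown because *Mki67*, *Kif23*, *Kif15* and *Cenpe* were higher in KO than in KO-con, *Cenpu* had the lowest adjusted p there and holds no CHR element in its window, and *Cdc20* holds both elements and was not called higher. Capitals mark CHR elements (TTTGAA or TTTAAA, or TTCAAA on the other strand) and CCAAT boxes (CCAAT, or ATTGG on the other strand).
*Mki67*, chr7:135716360-135716509, minus strand: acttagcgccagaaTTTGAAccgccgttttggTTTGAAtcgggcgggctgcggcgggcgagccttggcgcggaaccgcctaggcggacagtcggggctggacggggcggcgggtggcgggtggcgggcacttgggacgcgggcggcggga
*Kif23*, chr9:61946780-61946929, minus strand: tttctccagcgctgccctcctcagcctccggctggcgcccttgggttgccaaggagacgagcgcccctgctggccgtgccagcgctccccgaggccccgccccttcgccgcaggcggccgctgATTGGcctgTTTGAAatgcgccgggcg
*Kif15*, chr9:122950951-122951100, plus strand: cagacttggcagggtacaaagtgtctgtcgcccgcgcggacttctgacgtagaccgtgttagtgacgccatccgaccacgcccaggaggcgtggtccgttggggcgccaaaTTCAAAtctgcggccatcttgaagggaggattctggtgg
*Cenpe*, chr3:135212433-135212582, plus strand: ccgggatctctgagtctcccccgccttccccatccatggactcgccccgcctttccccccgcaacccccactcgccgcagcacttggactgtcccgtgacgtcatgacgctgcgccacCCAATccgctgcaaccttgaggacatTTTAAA
*Cenpu*, chr8:46551939-46552088, plus strand: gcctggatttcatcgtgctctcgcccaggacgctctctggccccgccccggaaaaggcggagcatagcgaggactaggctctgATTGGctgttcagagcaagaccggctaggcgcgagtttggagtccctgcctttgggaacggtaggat
*Cdc20*, chr4:118437324-118437473, minus strand: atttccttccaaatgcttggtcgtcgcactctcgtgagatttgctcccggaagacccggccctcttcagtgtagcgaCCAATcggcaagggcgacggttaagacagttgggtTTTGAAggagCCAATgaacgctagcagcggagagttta
*Mki67* holds a pair of TTTGAA elements in this stretch, *Kif23* has a CCAAT box just ahead of its TTTGAA, and *Cdc20* has a CCAAT box on each side of it. A CHR element was present for 7 of the 10 genes with a window that were higher in KO (70.0%) and for 16 of the 19 other genes tested (84.2%). A CCAAT box was present for 5 of those 10 (50.0%) and for 16 of those 19 (84.2%).

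The knockout was first set against its own control. In KO, 12 of the 33 genes tested were higher than in KO-con (36.4%, where 5.83% of all 9457 transcripts tested were higher) and 1 was lower (3.03%, where 5.96% of all were lower). A call needed an adjusted p under 0.05 in edgeR's quasi-likelihood test, with the Benjamini-Hochberg method applied over all transcripts. Those that rose were *Cenpu*, *Ndc80*, *Cenpe*, *Bub1b*, *Mad1l1*, *Mad2l1*, *Aurkb*, *Incenp*, *Kif15*, *Kif23*, *Anln* and *Mki67*, and the one that fell was *Vrk1*. The changes were mostly small. With the study's further threshold of an absolute log2 fold change over 1, *Cenpu* and *Mad1l1* were higher (6.06% of those tested, against 0.825% of all transcripts) and *Vrk1* was lower (3.03% against 0.878%). Fold changes were above 0 for 30 of the 33 genes (90.9%, against 51% of all transcripts), and their median log2 fold change was 0.36 where that of all transcripts was 0.01. The 3 KO libraries lay above the 3 KO-con libraries for 17 genes (51.5%, against 15.3% of all) and below them for 2 (6.06%, against 15.2%). In bulk RNA, a different share of cells that express these genes and a different mRNA level per cell cannot be told apart.

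**Figure D2:**
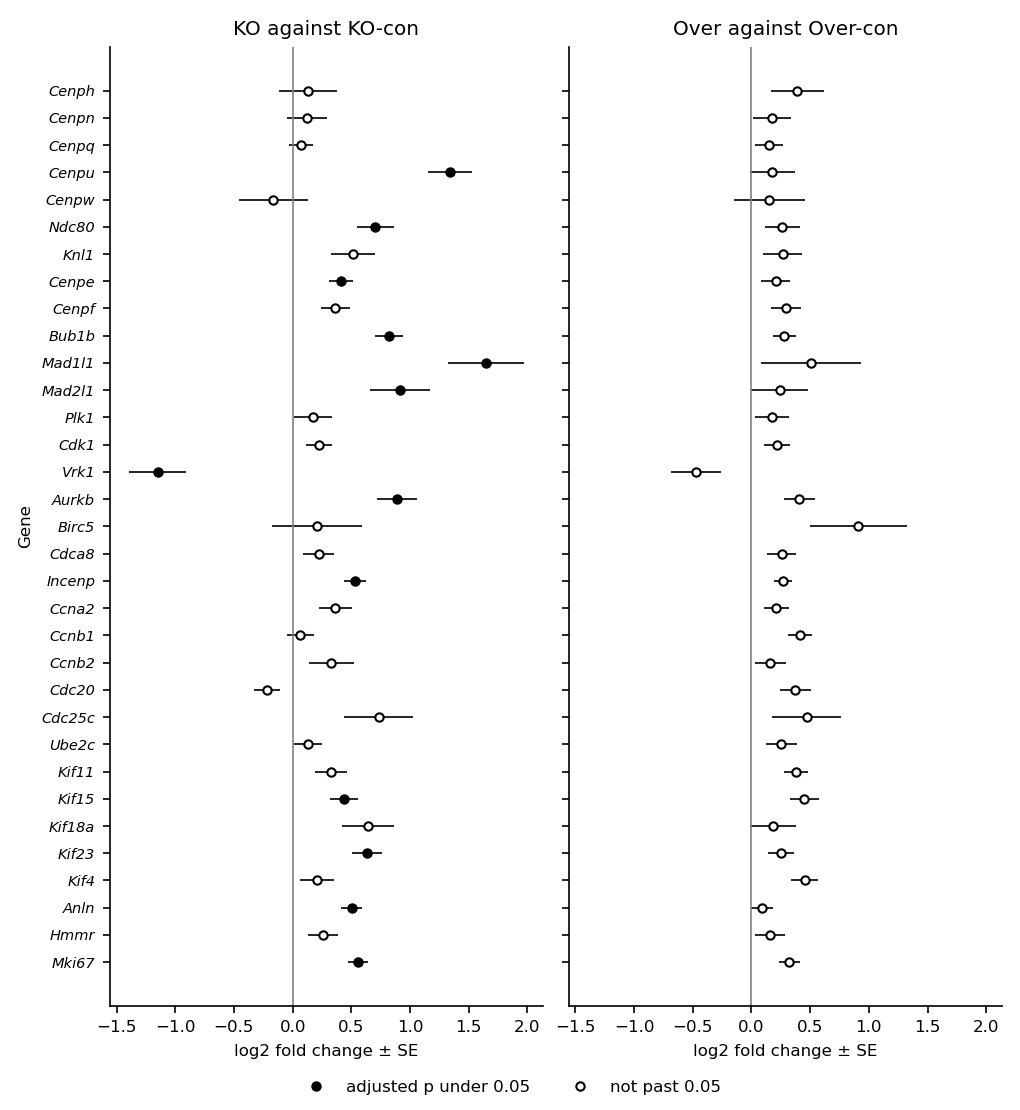
Log2 fold change (x axis, with its SE as a bar) of the 33 genes tested (y axis), for KO against KO-con on the left and Over against Over-con on the right. Filled points have an adjusted p under 0.05. On the left 12 filled points lie above 0 and 1 below, and on the right no point is filled and 32 of 33 lie above 0.

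At the inner centromere, the 5 tested genes of the constitutive centromere network split. *Cenpu*, a subunit of the CENP-O group that recruits Polo-like kinase to the kinetochore, lies on mm9 chromosome 8 from 47637409 to 47665361. It was at 3.21, 4.39 and 3.76 CPM in KO-con, 10.1, 9.63 and 9.08 in KO, 8.2, 5.46 and 6.7 in Over-con and 6.38, 8.42 and 8.55 in Over. Every KO-con library was below the other 9 and every KO library above them. The log2 fold change in KO over KO-con was 1.34 ± 0.19 (SE, adjusted p = 0.000213). The other 4, *Cenph*, *Cenpn*, *Cenpq* and *Cenpw*, all subunits of the same network, had log2 fold changes of 0.13, 0.12, 0.07 and -0.16 and did not pass the test. *Cenpq*, a partner of *Cenpu* in the CENP-O group, was among them at 27.1 ± 0.659 CPM (SD, n = 3) in KO-con and 28.4 ± 0.875 in KO.

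Of 4 tested genes of the outer kinetochore, the layer that binds microtubules, 2 rose in KO. *Ndc80*, the main microtubule-binding subunit (chromosome 17 from 71845440 to 71876197 on mm9), was at 7.35, 7.25 and 7.88 CPM in KO-con, 13.4, 10.6 and 12.5 in KO, 7.99, 8.62 and 10.1 in Over-con and 10.7, 11.1 and 10.2 in Over. *Cenpe*, a kinesin that carries chromosomes to the spindle equator (chromosome 3 from 134875527 to 134936504), was at 32.9, 31.3 and 28.8 CPM in KO-con, 44.7, 38.1 and 40.9 in KO, 36.9, 44.9 and 29.8 in Over-con and 39.8, 45.3 and 40.7 in Over. For both genes KO and KO-con did not overlap, while Over-con spanned the gap for *Cenpe*. In KO over KO-con, *Ndc80* had a log2 fold change of 0.70 ± 0.16 (adjusted p = 0.00795) and *Cenpe* one of 0.41 ± 0.10 (adjusted p = 0.0128, and 0.0664 without KO-con replicate 3). *Knl1*, the scaffold on which checkpoint proteins gather, and *Cenpf*, a large protein of the kinetochore corona, had log2 fold changes of 0.51 ± 0.19 and 0.36 ± 0.12 with adjusted p = 0.0870 and 0.0661.

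All 3 spindle checkpoint genes tested rose in KO. *Bub1b* encodes BubR1, a part of the mitotic checkpoint complex that inhibits the APC/C, and lies on chromosome 2 from 118423947 to 118467328 on mm9. Its level was 20.0, 17 and 16.1 CPM in KO-con, 27.2, 32.8 and 33.1 in KO, 25.5, 29 and 30.4 in Over-con and 34.8, 35.8 and 31.8 in Over. KO-con alone was low, with each of its libraries under the other 9 (log2 fold change 0.82 ± 0.12, adjusted p = 0.000416 in KO over KO-con). *Mad1l1*, which brings Mad2 to unattached kinetochores, is listed with 4 transcripts, all of its 230 counts fell on 1 of them, and its level was 0.931, 0.895 and 1.94 CPM in KO-con, 3.69, 3.73 and 3.99 in KO, 0.82, 0.528 and 1.55 in Over-con and 0.925, 1.84 and 1.6 in Over. Only KO stood out, above all 9 other libraries (log2 fold change 1.64 ± 0.32, adjusted p = 0.00310). The counts of *Mad1l1* were low, at 3 to 44 per library. *Mad2l1*, the checkpoint protein that binds Cdc20, is listed with 2 transcripts and was at 2.38, 2.24 and 2.42 CPM in KO-con, 5.3, 3.38 and 4.63 in KO, 3.59, 4.93 and 2.72 in Over-con and 3.98, 4.59 and 4.06 in Over. KO-con was again lowest (log2 fold change 0.91 ± 0.25, adjusted p = 0.0282). The *Mad2l1* call was lost in 5 of the 6 fits that left out 1 library, those without KO-con replicate 1, 2 or 3 or KO replicate 1 or 3 (adjusted p = 0.0914, 0.0965, 0.0720, 0.0725 and 0.0637), and with DESeq2 (adjusted p = 0.0830).

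Among the mitotic kinases the direction differed by gene. *Vrk1*, a kinase of histone H3 and of the protein that ties chromatin to the nuclear envelope, lies on chromosome 12 from 107248473 to 107315620 on mm9 and was at 12, 11.9 and 10.2 CPM in KO-con, 3.11, 4.25 and 7.72 in KO, 6.87, 5.98 and 6.6 in Over-con and 5.27, 5.36 and 3.21 in Over. All 3 KO-con libraries were above the other 9 (log2 fold change -1.15 ± 0.24, adjusted p = 0.00517 in KO over KO-con). *Vrk1* has 6 listed transcripts, and 820 of its 842 counts fell on the one shown. *Cdk1*, the kinase that drives mitotic entry, was at 23.3 ± 2.48 CPM (SD, n = 3) in KO-con and 26.9 ± 0.601 in KO, and *Plk1*, the Polo-like kinase, at 9.89 ± 1.82 and 11.1 ± 0.618. Neither passed the test, with log2 fold changes of 0.22 ± 0.11 (adjusted p = 0.230) and 0.17 ± 0.16 (adjusted p = 0.562).

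All 4 genes of the chromosomal passenger complex, which corrects faulty attachments and guides cytokinesis, were tested, and 2 rose. *Aurkb*, its kinase (chromosome 11 from 68859149 to 68865166 on mm9), was at 7.55, 8.14 and 6.06 CPM in KO-con, 11.7, 12.7 and 15.8 in KO, 11.6, 14.6 and 16 in Over-con and 17.9, 19 and 18.7 in Over. *Incenp*, the scaffold that activates the kinase (chromosome 19 from 9946787 to 9974023), was at 49.3, 47 and 43.5 CPM in KO-con, 63.5, 62.6 and 75.3 in KO, 56.7, 55.4 and 53.2 in Over-con and 66.2, 66.3 and 65.1 in Over. Both were lowest in KO-con, with no overlap with the other 9 libraries, and *Aurkb* was also higher in each Over library than in any other. In KO over KO-con, the log2 fold change was 0.89 ± 0.17 (adjusted p = 0.00268) for *Aurkb* and 0.53 ± 0.10 (adjusted p = 0.00154) for *Incenp*. *Cdca8* (borealin) had a log2 fold change of 0.22 ± 0.13 (adjusted p = 0.333). *Birc5* (survivin), listed with 2 transcripts and at 0.512 to 2.89 CPM, had 0.20 ± 0.38 (adjusted p = 0.802).

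None of the 6 tested genes among the cyclins, CDC25 phosphatases and APC/C partners passed the test in KO over KO-con. Their log2 fold changes were 0.36 for *Ccna2* (cyclin A2), 0.06 for *Ccnb1* and 0.33 for *Ccnb2* (the B cyclins), 0.73 for *Cdc25c*, a phosphatase that activates Cdk1, 0.13 for *Ube2c*, the ubiquitin-conjugating enzyme of the APC/C, and -0.22 for *Cdc20*, its activator in mitosis. *Cdc20* (chromosome 4 from 118105506 to 118109957 on mm9) was at 27, 24.8 and 27.4 CPM in KO-con, 21.1, 21.9 and 24.5 in KO, 21.1, 22 and 28.8 in Over-con and 34.2, 32.5 and 26.4 in Over. The KO libraries lay just below those of KO-con without overlap, and the adjusted p was 0.235.

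Of 5 mitotic kinesins tested, 2 rose in KO. *Kif23*, the motor of the centralspindlin complex at the spindle midzone (chromosome 9 from 61765087 to 61794606 on mm9), was at 12.4, 12.4 and 12 CPM in KO-con, 18.2, 18 and 20.6 in KO, 18, 18.8 and 16.5 in Over-con and 21.2, 20.4 and 21.4 in Over. KO-con was below the other 9 libraries (log2 fold change 0.64 ± 0.13, adjusted p = 0.00346). *Kif15*, which helps to hold the spindle poles apart (chromosome 9 from 122860199 to 122927843), was at 26, 24.9 and 20.8 CPM in KO-con, 35.9, 32.3 and 28.9 in KO, 31.1, 33.8 and 23.4 in Over-con and 35.9, 43.1 and 39.1 in Over. KO lay above KO-con, with Over-con replicate 3 between the KO-con libraries (log2 fold change 0.44 ± 0.12, adjusted p = 0.0235). This call was lost without KO-con replicate 2 or 3 or KO replicate 2 (adjusted p = 0.0579, 0.112 and 0.0788). *Kif11*, the motor that separates the poles, *Kif18a* and the chromokinesin *Kif4* had log2 fold changes of 0.33 ± 0.13, 0.64 ± 0.22 and 0.21 ± 0.14 and did not pass (adjusted p = 0.136, 0.0717 and 0.401).

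*Anln*, encoding anillin, a scaffold of the contractile ring (chromosome 9 from 22135658 to 22193650 on mm9), was at 52.3, 48.4 and 52.6 CPM in KO-con, 76.6, 73 and 66.3 in KO, 61.5, 60.2 and 49.1 in Over-con and 56.4, 60.6 and 63.4 in Over. Each KO library was above the other 9 (log2 fold change 0.50 ± 0.09, adjusted p = 0.00113). *Hmmr*, a spindle assembly protein, did not pass (log2 fold change 0.26 ± 0.13, adjusted p = 0.209). *Mki67*, the antigen Ki-67 that coats mitotic chromosomes and marks cycling cells (chromosome 7 from 142881471 to 142908062), had the most counts of the 52 genes, with 118, 117 and 103 CPM in KO-con, 175, 144 and 174 in KO, 186, 172 and 139 in Over-con and 202, 205 and 210.1 in Over. KO-con was below and Over above all other libraries, and KO overlapped Over-con (log2 fold change 0.55 ± 0.09, adjusted p = 0.000595 in KO over KO-con).

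**Figure D3:**
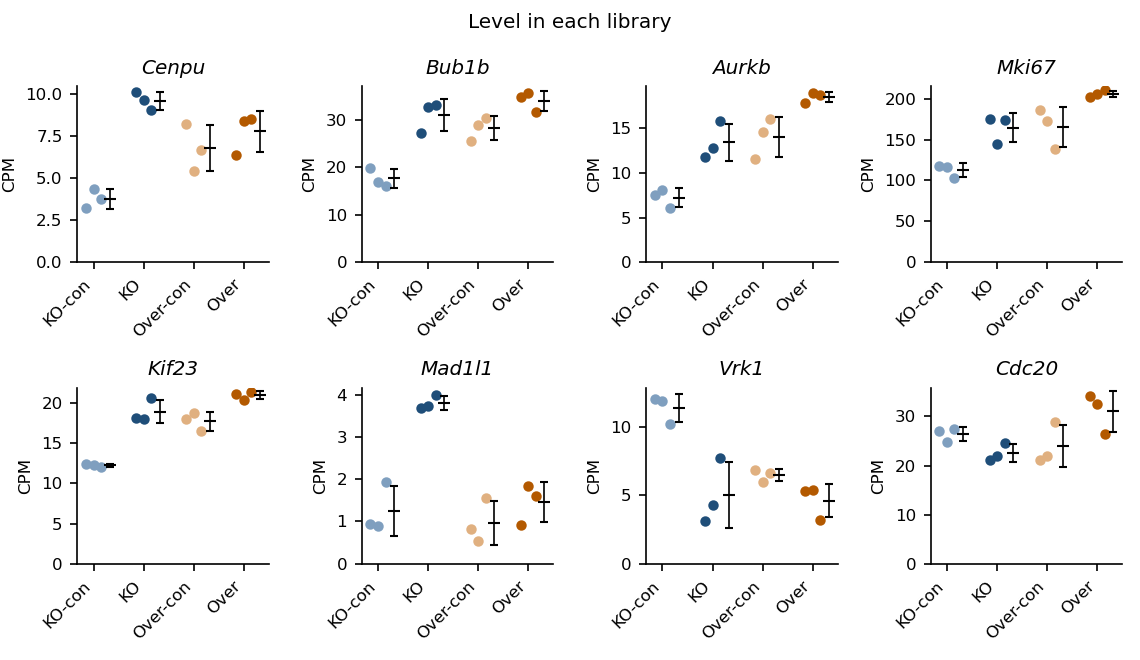
CPM (y axis, from 0) of 8 genes in each library of KO-con, KO, Over-con and Over. Points are libraries, and the bar beside them is the mean with its SD (n = 3). For *Cenpu*, *Bub1b*, *Aurkb*, *Mki67* and *Kif23* the 3 KO-con libraries lie below the other 9, for *Vrk1* they lie above, and for *Mad1l1* the KO libraries lie above the rest.

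The overexpressing line was then set against its empty vector control. None of the 33 genes tested passed in either direction in Over over Over-con, where 0.766% of all 9401 transcripts were higher and 0.883% lower. At an unadjusted p under 0.05, 12 genes were higher (36.4%, against 6.25% of all transcripts) and 1 was lower (3.03%, against 6.74%). DESeq2 called 1 gene, *Mki67* (log2 fold change 0.33, adjusted p = 0.0339). Fold changes were above 0 for 32 of the 33 (97%, against 49.8% of all transcripts), with a median log2 fold change of 0.26 where that of all transcripts was -0.00. The study reported a smaller G2/M share of cells and less proliferation in this line, and how these relate to the mRNA levels was not tested. The libraries did not overlap for 12 genes higher in Over (36.4%, against 8.79% of all) and 1 lower (3.03%, against 10.5%), *Vrk1*. The count of 0 changed with the fit. Without Over-con replicate 3, which had the lowest median of these genes in its group, 5 genes were called higher, while calls in either direction over all transcripts went from 155 of 9401 (1.65%) to 719 of 9596 (7.49%). With all 6 libraries and no filter on low counts, 6 genes were called higher, with 302 of 19469 transcripts called in all (1.55%).

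The lowest adjusted p in Over over Over-con was that of *Ccnb1*. It was at 24.1, 26.6 and 24.7 CPM in Over-con, 31.1, 32.3 and 36.4 in Over, 28.7, 26.1 and 22.3 in KO-con and 26.4, 25.7 and 28.3 in KO. The Over libraries lay above the other 9 (log2 fold change 0.41 ± 0.10, adjusted p = 0.0518). *Kif4* (log2 fold change 0.45 ± 0.11, adjusted p = 0.0644) and *Kif11* (log2 fold change 0.38 ± 0.10, adjusted p = 0.0795) came next. Of the genes that rose in KO, the log2 fold changes in Over ran from 0.09 ± 0.09 for *Anln* (adjusted p = 0.744) to 0.51 ± 0.42 for *Mad1l1* (adjusted p = 0.677), with 0.41 ± 0.13 for *Aurkb* (adjusted p = 0.161), 0.32 ± 0.09 for *Mki67* (adjusted p = 0.0933) and 0.27 ± 0.07 for *Incenp* (adjusted p = 0.0988). *Vrk1* had -0.47 ± 0.22 (adjusted p = 0.371).

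Whether the knockout and the overexpression moved a gene differently was tested on the difference of the 2 effects, with all 12 libraries in 1 fit. The 34 genes tested included a kinesin that had too few counts to be tested between KO and KO-con. Of the 34, 2 differed upwards, with the larger change in KO (5.88%, against 4.12% of all 9903 transcripts), and 1 downwards (2.94%, against 4.52%). These shares are near those of all transcripts. The genes were *Cenpu* (difference 1.16 ± 0.26, adjusted p = 0.00855), *Bub1b* (difference 0.54 ± 0.16, adjusted p = 0.0380) and *Cdc20* (difference -0.59 ± 0.18, adjusted p = 0.0426). *Cdc20* was higher in Over than in Over-con by 0.37 ± 0.13 on the log2 scale, and in KO, set against KO-con, its log2 fold change was -0.22 ± 0.11, and neither effect passed by itself. The *Cenpu* call held without any 1 library. The *Bub1b* call was lost in 9 of the 12 fits without 1 library (KO-con replicate 2 or 3, KO 2 or 3, Over-con 2 or 3, or any Over library, adjusted p = 0.0600 to 0.114). The *Cdc20* call was lost in 9 as well (any KO-con library, KO 1 or 2, Over-con 1 or 2, or Over 1 or 2, adjusted p = 0.0523 to 0.131). *Anln* just missed (difference 0.41 ± 0.13, adjusted p = 0.0532) and passed without KO replicate 3 (adjusted p = 0.0324) or Over-con replicate 3 (0.00723). *Vrk1* passed without KO replicate 3 too (difference -1.13, adjusted p = 0.0233).

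Each altered line was also compared with the other line's control. KO over Over-con gave 1 call among 33 genes, *Mad1l1*, which was higher (log2 fold change 1.87 ± 0.34, adjusted p = 0.00304). That is 3.03% of the genes, against 3.07% of all transcripts higher and 4.81% lower, and 26 of the 33 fold changes were above 0 (78.8%, against 50.2%), with a median log2 fold change of 0.17. Over against KO-con gave 19 genes higher (57.6%, against 10.8% of all transcripts) and 1 lower, *Vrk1* (3.03%, against 10.7%), with a median log2 fold change of 0.44. The libraries did not overlap there for 23 genes higher in Over (69.7%, against 17.2%). Among the 19 were all 5 kinesins tested and all 4 outer kinetochore genes tested, and the largest rises were those of *Aurkb* (log2 fold change 1.34 ± 0.13, adjusted p = 2.71e-08) and *Cenpu* (log2 fold change 1.04 ± 0.20, adjusted p = 0.000305).

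The 2 control groups differed from each other as well. KO-con was lower than Over-con for 5 of the 32 genes tested (15.6%, against 8.19% of all transcripts) and higher for 1 (3.12%, against 8.08%). Those lower were *Aurkb* (log2 fold change -0.93 ± 0.17), *Cenpu* (-0.85 ± 0.22), *Bub1b* (-0.67 ± 0.12), *Mki67* (-0.55 ± 0.10) and *Kif23* (-0.52 ± 0.13), with adjusted p = 0.000642, 0.0114, 0.000663, 0.000368 and 0.00920. The *Cenpu* call was lost without KO-con replicate 1 (adjusted p = 0.0742) or Over-con replicate 1 (0.0941). Without Over-con replicate 3 the number lower was 9, while calls in either direction over all transcripts went from 16.3% to 20.8%. *Vrk1* was higher in KO-con (log2 fold change 0.81 ± 0.17, adjusted p = 0.00166). The comparisons share control libraries, so their fold changes are given side by side and not as repeats of each other. For *Mki67*, the log2 fold change in KO was 0.55 over KO-con and -0.01 over Over-con. For *Bub1b* it was 0.82 and 0.14, for *Aurkb* 0.89 and -0.06, for *Cenpu* 1.34 and 0.48, and for *Anln* 0.50 and 0.34.

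**Figure D4:**
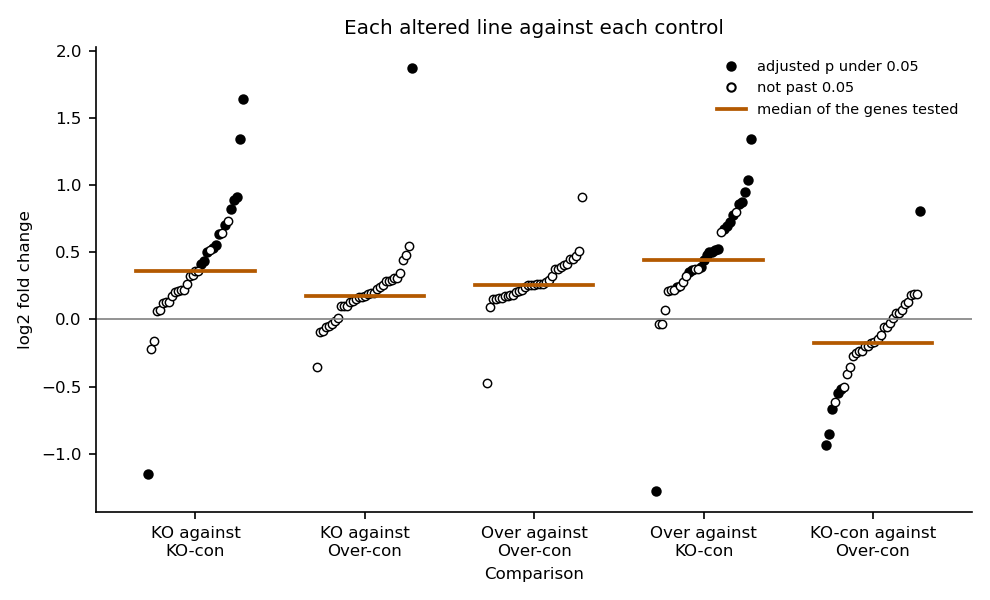
Log2 fold changes (y axis) of the genes tested in 5 comparisons (x axis), each point 1 gene and sorted by size within a comparison, with the median as a line. Filled points have an adjusted p under 0.05. The medians are 0.36 for KO against KO-con, 0.17 for KO against Over-con, 0.26 for Over against Over-con, 0.44 for Over against KO-con and -0.17 for KO-con against Over-con.

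The order of the 4 groups was described over the 32 genes tested in every comparison. KO-con had the lowest mean for 22 of them (68.8%, against 28.8% of 9001 transcripts), and all 3 KO-con libraries were below the other 9 for 9 genes (28.1%, against 4.77%): *Aurkb*, *Bub1b*, *Cenpu*, *Incenp*, *Kif23*, *Knl1*, *Mad2l1*, *Mki67* and *Ndc80*. For *Vrk1* alone (3.12%, against 6.27%) the KO-con libraries were above the other 9. Over had the highest mean for 18 (56.2%, against 19.3%) and stood above the other 9 libraries for *Aurkb*, *Ccnb1* and *Mki67* (9.38%, against 1.68%). KO had the highest mean for 12 (37.5%, against 25.9%) and stood above the rest for *Anln* and *Cenpu* (6.25%, against 3.92%). Over-con had the highest mean for 0 of the 32, where 26.4% of all transcripts were highest there. In each library, the median deviation of the 32 genes from their 12-library mean on the log2 scale was -0.13, -0.28 and -0.31 in KO-con, 0.15, -0.03 and 0.22 in KO, -0.00, 0.03 and -0.13 in Over-con and 0.17, 0.26 and 0.19 in Over. KO-con replicates 2 and 3 were the lowest of the 12, and KO-con replicate 1 was level with Over-con replicate 3. KO replicate 2 lay within the range of Over-con, and the 3 Over libraries were close together.

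**Figure D5:**
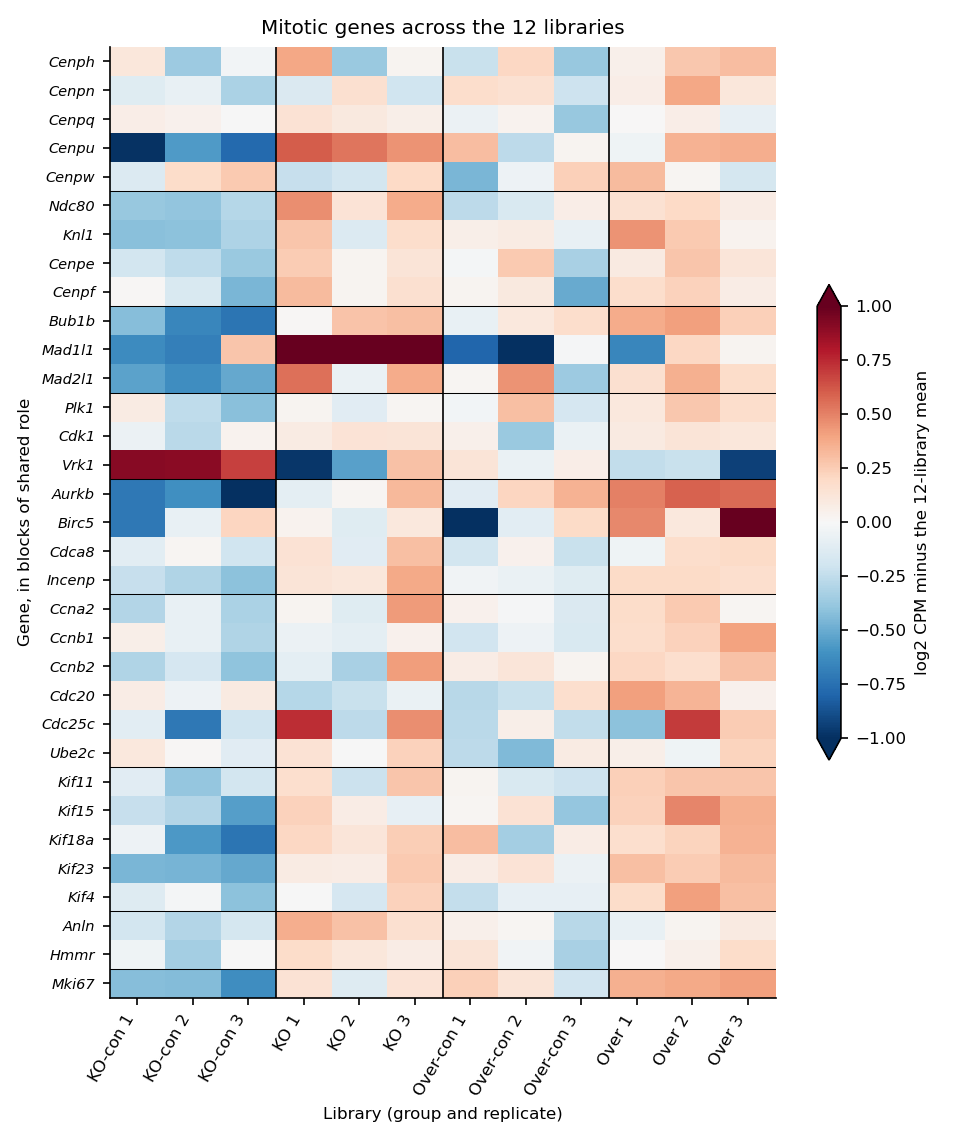
Log2 CPM minus the gene's mean over 12 libraries (colour, saturated at -1 and 1) for the genes tested between KO and KO-con (rows, in blocks of shared role) in each library (columns). The KO-con columns are mostly blue, except in the row of *Vrk1*, and the Over columns mostly red, while rows such as *Cenpq* and *Cenpw* show little contrast between groups.

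Other genes of cell division were read from lists named by role. In KO over KO-con, 5.83% of all transcripts were higher. Of 10 tested genes in a list of cohesin and condensin genes and *Top2a*, 4 rose and 0 fell. These were *Top2a*, the topoisomerase that untangles sister chromatids (log2 fold change 0.43 ± 0.07, adjusted p = 0.000849), and the condensin subunits *Ncapg* (log2 fold change 0.52 ± 0.13, adjusted p = 0.0168), *Ncapg2* (0.41) and *Ncapd2* (0.30). No cohesin gene tested was called. Of 23 other kinetochore and centromere genes, *Zwilch*, a part of the complex that recruits dynein, and *Sgo1*, which protects cohesin at centromeres, rose with log2 fold changes of 0.60 and 0.53, and 0 fell. Of 13 other spindle and cytokinesis genes, 1 rose, the kinesin *Kif14* (0.54). The shares of these last 2 lists are near that of all transcripts. Of 15 genes of the APC/C and of mitotic entry, the subunit *Anapc4* (0.31) and the kinase *Mastl* (0.64) rose. Of 23 DNA replication genes, 8 were higher and 0 lower, led by the clamp loader subunit *Rfc2* (log2 fold change 0.74 ± 0.08, adjusted p = 2.37e-05), and the median log2 fold change of the 23 was 0.31. Against Over-con, 0 of 23 were called in KO in either direction in edgeR (median 0.04, with 1 higher and 0 lower at an unadjusted p under 0.05), and in KO-con 8 of 23 were lower (median -0.24, where 8.19% of all transcripts were lower). In Over over Over-con, where 0.766% of all transcripts were higher, 2 of 9 genes of the list with *Top2a* rose (the condensin genes *Ncaph* and *Ncapd2*, 0.52 and 0.40). Of the replication genes, 3 of 23 rose (*Cdt1*, *Pole* and *Mcm3*, 0.61, 0.50 and 0.31). In Over against KO-con, where 10.8% of all transcripts were higher, 11 of 13 other spindle genes, 10 of 23 other kinetochore genes and 15 of 23 replication genes were higher and 0 were lower. KO-con was lower than Over-con for 0 of 13, 2 of 23 and 8 of 23 genes of these lists in edgeR, and at an unadjusted p under 0.05 for 1, 3 and 9.

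Levels of markers of other cells are given by group. The summed level of 11 mast cell markers was 371 to 431 CPM in KO-con, 1148 to 1229 in KO, 759 to 863 in Over-con and 646 to 668 in Over. Nearly all of it was *Cpa3*, at 425, 363 and 415 CPM in KO-con and 1158, 1138 and 1214 in KO. *Fcer1a*, *Ms4a2* and *Tpsab1* had 0 counts in every library. *Ms4a2* has 4 listed transcripts, and 0 counts for such a gene is not evidence that it is absent. The same limit holds below for *Pdgfrb* (2 listed transcripts), *Adgre1* (3) and *Itgam* (2). Of the 5 mast cell markers tested in KO over KO-con, 3 were higher and 0 lower. They were *Cpa3* (log2 fold change 1.55 ± 0.08, adjusted p = 2.6e-09), *Cma1* (1.79 ± 0.40, adjusted p = 0.00834) and *Hdc* (1.30 ± 0.36, adjusted p = 0.0267). *Gata2* (-0.34) and *Mitf* (-0.41) did not pass. The summed level of 10 fibroblast markers, of which *Pdgfrb* had 0 counts, was 1079 to 1262 CPM in KO-con, 983 to 1392 in KO, 1537 to 1710 in Over-con and 1343 to 1407 in Over. The sums of KO and KO-con overlapped, and of its 7 genes tested in KO over KO-con, *Pdgfra* (log2 fold change -1.56 ± 0.36, adjusted p = 0.00998) and *Dcn* (log2 fold change -0.41 ± 0.11, adjusted p = 0.0224) were lower and *Fbn1* (log2 fold change 0.45 ± 0.09, adjusted p = 0.00321) was higher. For 7 macrophage markers, with *Adgre1* and *Itgam* at 0 counts, it was 37.2 to 44.8 CPM in KO-con, 44.5 to 53.0 in KO, 40.1 to 45.5 in Over-con and 51.3 to 54.1 in Over. Most of this sum was *Cd68*, with a mean of 28.5 ± 4.21 CPM in KO-con and 39.4 ± 4.53 in KO (log2 fold change 0.48 ± 0.12, adjusted p = 0.0158), whereas the KO libraries lay below the KO-con libraries for *Cd14* (log2 fold change -0.48 ± 0.22, adjusted p = 0.187) and *Mpeg1* (-0.67 ± 0.29, adjusted p = 0.162), which did not pass. KO-con, where the mitotic genes were lowest, was also lowest in the mast cell sum. Over had the highest mean for 18 of the 32 mitotic genes tested in every comparison, and its mast cell sum lay below those of Over-con and KO. *Cpa3* was lower in Over than in Over-con (log2 fold change -0.30 ± 0.06, adjusted p = 0.0247). The part of these cells in the levels of the mitotic genes was not tested.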

How the data were processed

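RNA-seq libraries were made with a stranded mRNA kit. Per the labels and methods, the authors aligned trimmed reads to mm9 with HISAT2. The deposited counts, not normalized, give reads per RefSeq transcript (41388 transcripts, of which 41186 matched a symbol). The counter's strand setting and annotation are not given in the sources used here. The authors named DESeq2 for their own tests. The KO clone, Over and the controls each had 3 libraries, with groups and replicate numbers taken from titles.

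Counts were tested per transcript with edgeR 4.0.16 (TMM, filterByExpr, glmQLFit, glmQLFTest, R 4.3.3), each comparison on its 6 libraries and the difference of effects on all 12, and p-values were adjusted by the Benjamini-Hochberg method over every transcript tested. The biological coefficient of variation was 0.0537 to 0.0969. Calls were at an adjusted p under 0.05. This group of 52 genes, the gene lists and the tests were chosen with earlier results of these data known, although the list of names itself uses no measured value. A gene with several transcripts was shown by the one with the most counts. Values in every library are given for genes called in either line over its own control or in the difference of effects. Up to 4 called genes are named per other list. *Ccnb1* was added after its values were seen. Within groups, libraries differed by more than counting noise (chi-square per degree of freedom 1.93 to 12.3). The smallest p of an exact permutation test for 1 gene is 0.1 at 3 against 3. Positions are from GENCODE on mm9. The steps were tested on simulated data. In KO against KO-con, 67.2% of 1.5-fold and 89.6% of 2-fold changes were recovered, with 9 false calls. In the difference of effects it was 38.8% and 55.2%, with 6 false calls, so small differences can be missed there. Alternatives were DESeq2 1.42.0, other scalings and filters, 1 fit of all libraries, the replicate number as a block, counts summed per gene, each library left out, and, chosen after seeing the data, genes with 1 listed transcript alone.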

Additional observations from a re-analysis of the deposited data

Results flagged for a closer look

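For 3 genes the knockout effect and the overexpression effect, each over its own control, differed in the fit of all 12 libraries with edgeR's quasi-likelihood test. *Cenpu* rose by more in KO, with a difference of 1.16 ± 0.26 on the log2 scale (SE, adjusted p = 0.00855), and its 3 KO libraries lay above the other 9 while its KO-con libraries lay below them. *Bub1b* differed by 0.54 ± 0.16 (adjusted p = 0.0380), with KO-con below the other 9 libraries. *Cdc20* differed by -0.59 ± 0.18 (adjusted p = 0.0426), being lower in all 3 KO libraries than in KO-con and higher in Over than in Over-con with 1 Over-con library inside the Over range. The shares were near those of all transcripts, with 5.88% of the 34 genes tested against 4.12% upwards and 2.94% against 4.52% downwards. The *Bub1b* and *Cdc20* calls were each lost in 9 of the 12 fits without 1 library.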

How the results depend on the processing

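Of 1224 values of single named genes recomputed under the alternatives, 1162 kept their direction and side of the threshold, 41 lost their call, 21 gained one and 0 changed direction. Of 285 counts and medians, 251 kept within their limits. In KO against KO-con, 10 to 14 genes were called over all alternatives, 10 to 13 of them shared with the 13 reported. In Over against KO-con it was 14 (without Over replicate 2) to 24 (library totals in place of TMM), 14 to 20 shared. Of all transcripts, 15.3% and 22.9% were called in those 2 fits, and 21.5% as reported. Over against Over-con gave 0 genes higher as reported, 1 with DESeq2, 1 with library totals, 6 with no filter on low counts, and 0 to 5 with each library left out, the 5 being without Over-con replicate 3. KO against Over-con gave 1 higher, 2 with no filter, 0 with at least 10 counts in every library and 3 with all 12 libraries in 1 fit. Among genes with 1 listed transcript, 0 were lower in KO or in Over than in KO-con, 0 were higher in KO than in Over-con and 0 were higher in KO-con than in Over-con, since *Vrk1* and *Mad1l1* are not among them. The median in KO against KO-con was 0.28 to 0.46 without each library, 0.46 being without KO replicate 2. KO-con against Over-con gave 4 to 9 genes lower without each library, 9 being without Over-con replicate 3. In that fit 20.8% of all transcripts were called in either direction, against 16.3% as reported. For the difference of effects, 1 to 2 genes were higher and 0 to 2 lower without each library, and the median was 0.015 to 0.20. The causes of these changes were not tested, apart from the smaller set of genes.

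With the replicate number as a block, KO against KO-con gave 13 calls, all of them among those reported, Over against Over-con 0, KO against Over-con 2 higher, and the difference of effects 1 higher and 0 lower (*Bub1b* adjusted p = 0.0580, *Cdc20* 0.0565). Correlations of same-numbered libraries' deviations were -0.159 to 0.139 and 0 to 3 of 6 libraries were nearest to their own number. It was 0 of 6 for both lines over their own control, and 3 of 6 for each line over the other line's control. With only 3 candidates for each library, these counts cannot settle whether the numbers pair samples. The 19 genes that were not tested between KO and KO-con had too few counts to pass the filter there. A mitotic kinesin among them passed the filter in the fit of all 12 libraries. Genes near 1 CPM, *Mad1l1* and *Birc5*, had the widest errors in KO against KO-con.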

Other observations

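Regulators of G1 and of the G1/S step, which act before the genes above are transcribed, showed both directions in KO over KO-con, where 5.83% of all transcripts were higher and 5.96% lower. Of 15 tested, *Rb1*, the retinoblastoma protein that restrains entry into S phase, rose (log2 fold change 0.56 ± 0.08, adjusted p = 0.000377). The cyclin *Ccnd2* (log2 fold change -0.34 ± 0.07, adjusted p = 0.00294), its kinase *Cdk6* (log2 fold change -0.31 ± 0.07, adjusted p = 0.00490) and the inhibitor *Cdkn1a*, or p21 (log2 fold change -1.26 ± 0.39, adjusted p = 0.0459), fell. The median log2 fold change of the 15 was -0.02. *Cdk6* had a mean of 443 ± 11.8 CPM in KO-con, 355 ± 8.05 in KO and 303 ± 26.8 in Over-con, so its log2 fold change in KO was below 0 against KO-con and 0.23 ± 0.08 against Over-con (adjusted p = 0.117). Against Over-con, *Rb1* was again higher in KO (0.84 ± 0.11, adjusted p = 0.000191) and *Ccnd2* again lower (-0.43 ± 0.08, adjusted p = 0.00208). *Cdkn1a* kept its direction there but did not pass (-1.02 ± 0.45, adjusted p = 0.223). *Ccnd2* was also the 1 gene of the list called in Over over Over-con, where it was lower (log2 fold change -0.24 ± 0.06, adjusted p = 0.0389). Among 10 tested genes of the transcription factors that bind mitotic promoters, 0 rose and 1 fell in KO, *Nfyb*, a subunit of the factor that binds the CCAAT box (log2 fold change -0.29 ± 0.09, adjusted p = 0.0423). Its mean was 74.4 ± 7.05 CPM in KO-con, 60.5 ± 2.69 in KO and 51.1 ± 8.29 in Over-con, and its log2 fold change in KO against Over-con was 0.26 ± 0.11 (adjusted p = 0.236).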
